A study of Mus musculus with 36 samples.

Results

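On the array used to profile the mouse suprachiasmatic nucleus (SCN), 33142 of the 65956 non-control probe sets have no gene symbol in the platform annotation, and these are the probe sets described here. The rule uses that blank field and no measured value. By their IDs, 33121 have the prefix TC and 21 the prefix TSUnmapped. Of the TC probe sets, 33020 name a chromosome in the ID and 101 an unplaced contig. Of the remaining non-control probe sets, 30638 carry 1 symbol and 2176 carry several. IDs are given here up to their first full stop.

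The samples were SCN tissue of wild-type C57BL/6J mice, aged 8 to 14 weeks, kept in constant darkness for 2 days. Each mouse received 10 mM U0126, an inhibitor of the kinase MEK, or its vehicle DMSO, through a cannula into the lateral ventricle, 30 min before a light pulse (100 lux, 10 min) or a sham pulse. The groups were U0126-Light, U0126-Sham, DMSO-Light and DMSO-Sham at CT4 (the middle of the subjective day), CT15 (early subjective night) and CT22 (late subjective night), and each had 3 arrays of 2 pooled mice. Tissue was collected 60 min after the pulse. An infusion into the ventricle also reaches cells outside the SCN, and an array of pooled tissue cannot tell fewer cells of a type from less RNA per cell.

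Transcriptome arrays of this kind carry probes for stretches of transcription that were predicted or observed and not given a gene name. Such stretches include unnamed long noncoding RNAs, copies of repeats, and pieces of unspliced RNA from inside the introns of named genes. Light reaches the SCN clock through the retina and, at night, activates the MEK and ERK kinases, which induce transcription of a set of early genes and of their own feedback inhibitors. Without a name, a probe set can be placed only by its number. The TC numbers run along each chromosome: from one named gene to the next in number, the RefSeq position rose in 98.96% of steps, and 98.6% of 18045 genes lay on the plus strand before, or the minus strand after, a single break in each chromosome. A named probe set close in number is therefore given below as a numbered neighbour, and never as the name of an unnamed probe set. The neighbour given is not always the nearest one. Whether an unnamed probe set lies inside, beyond or opposite its neighbour was not determined here.

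Most probe sets without a symbol were dim. Their mean level over the 36 arrays had a median of 4.12 on the log2 scale, with 5% of them below 2.28 and 5% above 7.60, while probe sets with any symbol had a median of 5.35. The median of the 5222 negative control probe sets was 4.33. Only 2665 of the unnamed probe sets (8.04%) lay above the brightest of the 23 background control probe sets, at 6.80, against 28.6% of those with a symbol. The spread between replicate arrays was also wider, with a median within-group SD of 0.155 for the unnamed probe sets and 0.105 for those with a symbol. By prefix, the median was 4.12 for TC and 3.19 for TSUnmapped, and 3 of the 21 TSUnmapped probe sets, and 522 of the TC probe sets, had a mean above 10. The 300 unnamed probe sets numbered on chromosome Y had a median of 3.05, and the 19 on the mitochondrial chromosome one of 9.91. Some unnamed probe sets are the same measurement under several IDs: 815 of them share their value on every array with at least 1 other, in 196 sets of up to 63, which leaves 32523 distinct profiles.

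**Figure D1:**
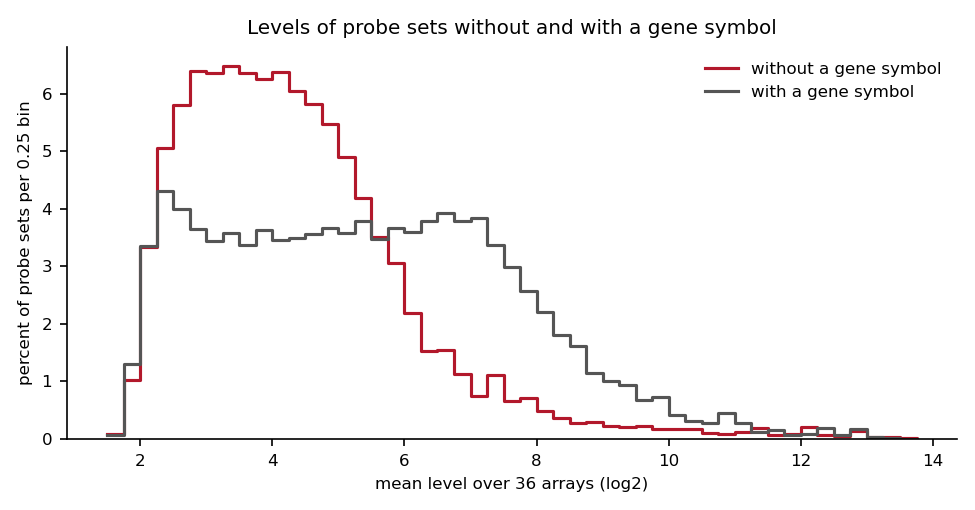
Percent of probe sets (vertical axis) in each 0.25-wide bin of mean log2 level over 36 arrays (horizontal axis), for the 33142 probe sets without a gene symbol and those with one. The unnamed probe sets pile up around their median of 4.12 and thin out above 6, where those with a symbol are still frequent.

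All arrays were compared in 1 linear model with limma over the 65956 non-control probe sets. A probe set is called here when its adjusted p (Benjamini-Hochberg, within a comparison) did not exceed 0.1 and its groups differed more than 1.3-fold. Probe sets named as the largest changes of a comparison were picked among called ones whose groups do not overlap. Lack of overlap is therefore no separate result for them. Between 7.14% and 31.7% of all probe sets had groups without overlap, depending on the comparison. With 3 arrays against 3, an exact permutation test of a single probe set cannot go below 0.1, so every p given comes from that model. The light and U0126 comparisons of a time, and the comparisons between times, use the same DMSO-Sham arrays. The median of all probe sets lay between 4.51 and 4.66 over the arrays, and no 2 arrays held identical values. The markers of SCN neurons had a mean, over 10 of 11 listed genes, between 8.11 and 8.97 on the arrays. That list holds neuropeptides and transcription factors, and also the receptor Vipr2 and the GABA synthesis genes Gad1 and Gad2. Dusp4, a phosphatase that acts on ERK and is induced by it, was lower with U0126 than with DMSO under light at CT4 and CT15 (log2 fold change -0.93 and -0.98). That check covers neither the arrays without light nor CT22. For U0126 without light, the paper reports that the gene Spry4 was altered at each of its time points. The model used here differed from that at CT4, where it called 0 of the 65956 probe sets with U0126 without light. In all, 29045 of the unnamed probe sets were called in none of the 15 comparisons between groups, 3039 in 1, and 2 in 6.

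**Figure D2:**
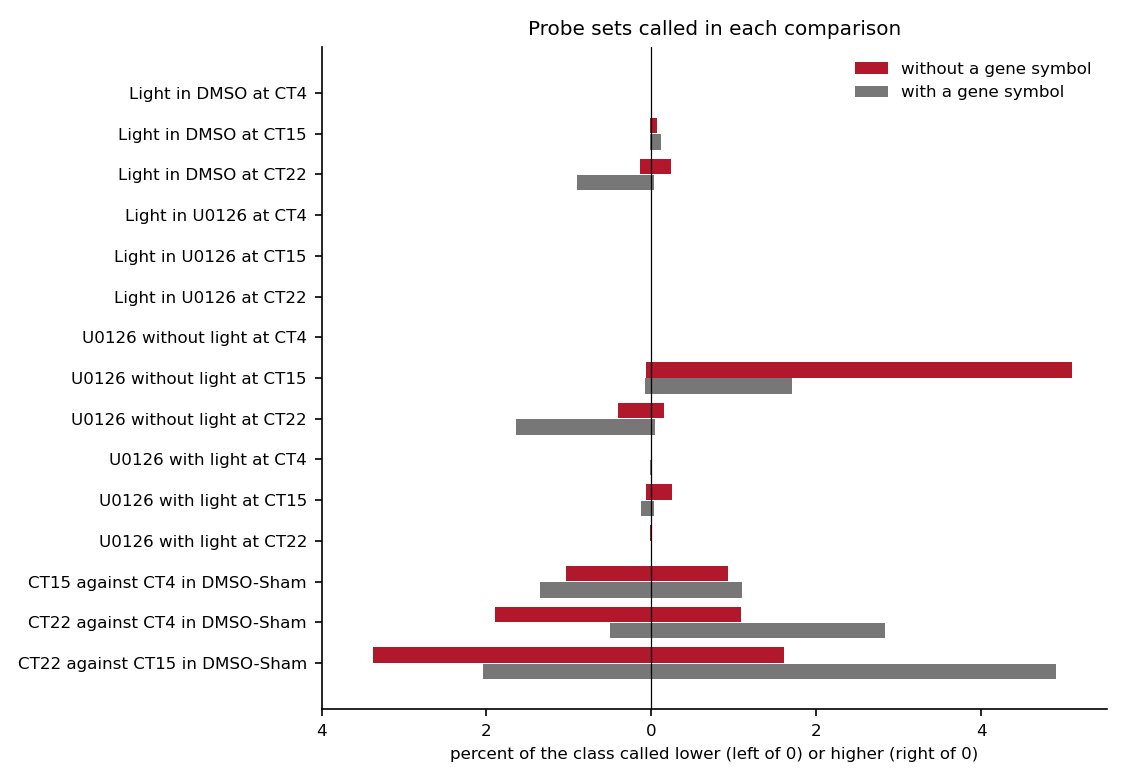
Percent of the probe sets without a symbol and with any symbol (bars) that were called higher (right of 0) or lower (left of 0) in each of 15 comparisons. The longest bar of the unnamed probe sets is at U0126 without light at CT15, where 1690 were higher and 22 lower.

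The comparison with by far the most unnamed probe sets higher was U0126 without light at CT15. There 1690 were higher in U0126-Sham and 22 lower than in DMSO-Sham (1712 in all), where 3.49% of all probe sets tested were called, 3.41% higher and 0.0728% lower. Higher calls made up 5.10% of the unnamed probe sets and 1.71% of those with a symbol (561 higher, 26 lower). The median log2 fold change of all probe sets tested was 0.01. The count rested on single arrays to some degree: 572 were called without DMSO-Sham replicate 3, 841 without DMSO-Sham replicate 2 and 729 without U0126-Sham replicate 2. At CT4 limma called none of them with U0126 without light, and 0 of all 65956 probe sets. There 2015 of the unnamed probe sets (6.08%), against 5.56% of all probe sets, had an unadjusted p under 0.05. At CT22, 50 were higher and 136 lower in U0126-Sham than in DMSO-Sham, against 1.12% called among all probe sets (0.097% higher and 1.02% lower). The difference between the U0126 effects at CT22 and CT15 was itself called for 953 unnamed probe sets (57 higher and 896 lower, against 2.44% of all probe sets, 0.152% higher and 2.29% lower). That count ranged between 390 without U0126-Sham replicate 2 of CT15 and 1419, and it was 399 to 555 without DMSO-Sham replicate 2 or 3 of CT15, DMSO-Sham replicate 1 or 2 of CT22, or U0126-Sham replicate 1 or 3 of CT22. The count at CT22 alone was 307 without U0126-Sham replicate 2.

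The probe sets that were higher with U0126 at CT15 often lay next to others called the same way. Of the 1690, 940 (55.6%) had a probe set, with or without a symbol, called the same way at the adjacent number. Of all unnamed probe sets, 8.13% had such a neighbour. The 1690 formed 130 unbroken runs of 3 or more, with 569 members, the longest of 12 (TC1600000822 to TC1600000833, numbered just before Robo1, a receptor that guides axons). Adjacent probe sets can share 1 transcript, so their calls are not separate observations.

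Their numbered neighbours had another feature in common, found after the values were seen. The nearest coding gene before an unnamed probe set had a median length of 45.2 kb over all 32952 for which one could be given, and 18.7% of them followed a gene longer than 200 kb. For the probe sets called higher with U0126 at CT15, that median was 365 kb and the share 65.1%. Counted from the gene side, 1101 of the 6155 unnamed probe sets numbered after a coding gene over 200 kb were higher (17.9%), against 589 of 26797 after a shorter one (2.20%). The median log2 fold change was 0.20 after long genes and 0.03 after shorter ones, and 82.5% and 60.2% of them lay above 0. The probe sets that carry the symbols of those long genes did not move with them: of 861, limma called 0 higher and 0 lower (50 at an unadjusted p under 0.05), and their median was 0.03. Without DMSO-Sham replicate 3 the calls were 383 (6.22%) after long genes and 186 (0.694%) after shorter ones, without DMSO-Sham replicate 2 551 (8.95%) and 283 (1.06%), and without U0126-Sham replicate 2 450 (7.31%) and 272 (1.02%).

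The pattern was visible array by array. The median deviation of the long-gene probe sets from their own mean over all arrays was 0.13, 0.19 and 0.16 on the U0126-Sham arrays at CT15, and -0.04, -0.05 and -0.06 on the DMSO-Sham arrays. These groups did not overlap. At the same time the U0126-Light arrays had 0.02, 0.18 and 0.19 and the DMSO-Light arrays -0.04, 0.02 and 0.10, which overlap. At CT4 all 12 arrays were between -0.05 and 0.04. At CT22 the U0126-Sham arrays had -0.13, -0.07 and -0.10 and the DMSO-Sham arrays -0.06, -0.06 and -0.15, again with overlap.

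**Figure D3:**
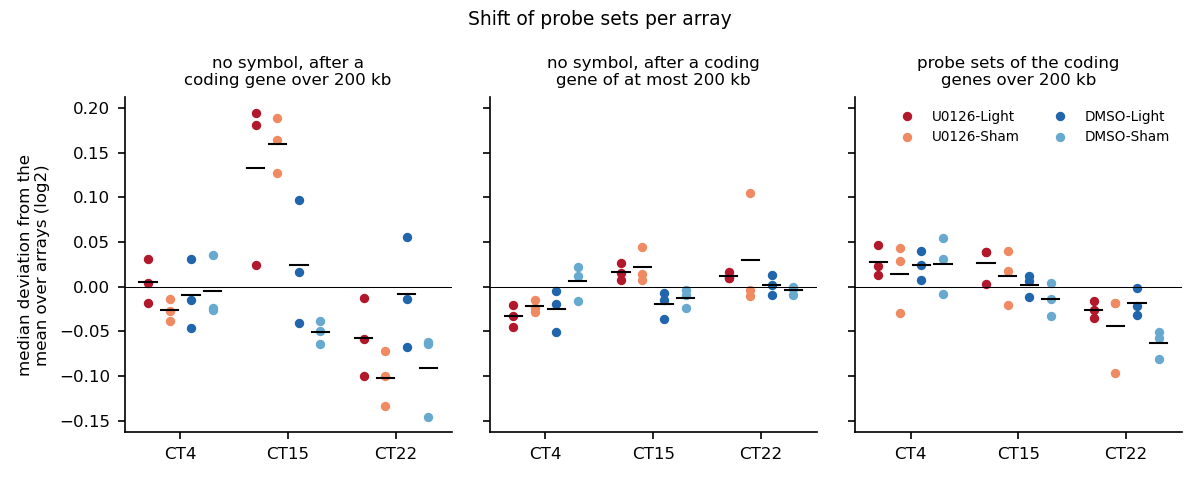
Median deviation from the mean over 36 arrays (log2, vertical axis) of 3 sets of probe sets on each array, by time and group: unnamed probe sets numbered after a coding gene over 200 kb, those after a shorter coding gene, and the probe sets of the long genes themselves. Points are arrays and lines are group means. In the left panel the 3 U0126-Sham arrays at CT15 (0.13 to 0.19) lie above the 3 DMSO-Sham arrays (-0.06 to -0.04).

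The examples that follow were picked after their values were seen. After Lsamp, a cell adhesion protein of neurons whose gene is 2197 kb long, 42 of 66 unnamed probe sets were higher with U0126 at CT15, while the Lsamp probe set itself had a log2 fold change of 0.10 (SE 0.05, adjusted p = 0.353 by limma). After Cntnap2, an adhesion protein of the nodes of axons, it was 19 of 33, with 0.00 for the gene. After Kcnd2, a voltage-gated potassium channel, it was 17 of 20, with 0.04 for the gene, and after Kcnip4, a subunit that modulates such channels, 18 of 30, with -0.05. Tenm3 had 18 of 41, Erbb4 16 of 27, Dlg2 16 of 24 and Csmd1 16 of 21. Length was not shared by all: 16 of 33 probe sets after Depdc1b (73.6 kb) were higher, and 13 of 60 after Gabra5, a subunit of the GABA-A receptor.

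The stretch after Nlgn1, which encodes the postsynaptic adhesion protein neuroligin 1 in a gene of 911 kb, shows the pattern in one place. All 29 consecutive probe sets that follow it in number have no symbol, and 22 of them were higher with U0126 without light at CT15, by 0.45 to 0.83 on the log2 scale. The largest difference was at TC0300001736, the 9th after Nlgn1. It had 7.23, 7.10 and 7.15 on the U0126-Sham arrays and 6.31, 6.47 and 6.23 on the DMSO-Sham arrays, with no overlap (log2 fold change 0.83, SE 0.18, adjusted p = 0.011 by limma). The Nlgn1 probe set had 8.27, 8.18 and 8.01 on the U0126-Sham arrays and 8.00, 8.06 and 8.09 on the DMSO-Sham arrays, and these overlap (0.10, adjusted p = 0.595). Under light, limma called 0 of the 29 with U0126 at CT15, and 6 had an unadjusted p under 0.05. For TC0300001736, the U0126-Light arrays had 6.57, 7.00 and 7.29 and the DMSO-Light arrays 6.44, 6.66 and 6.98, a difference of 0.26 (adjusted p = 0.670).

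**Figure D4:**
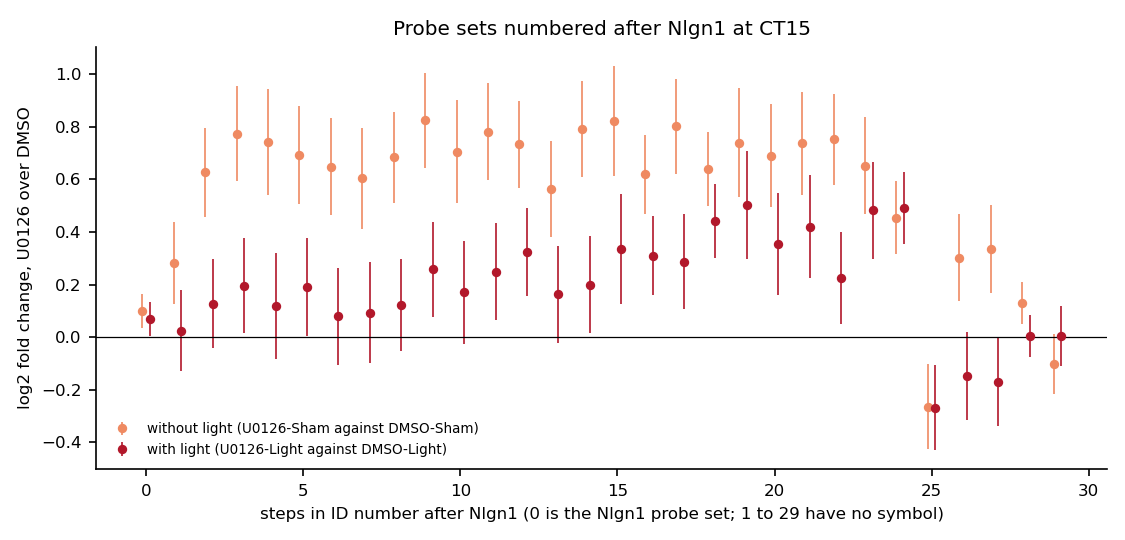
Log2 fold change of U0126 over DMSO at CT15 (vertical axis, bars are 1 SE) for the Nlgn1 probe set (step 0) and the 29 unnamed probe sets numbered after it (horizontal axis, steps in ID number), without light and with light. Without light, most points from steps 2 to 24 lie between 0.45 and 0.83, and the Nlgn1 probe set is near 0.10.

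Other measures moved on the same arrays, and their part in these calls was not tested. The 94 probe sets named for 5S ribosomal RNA, a short RNA of the large ribosomal subunit, were nearly all higher with U0126 at CT15 (91 called, median log2 fold change 1.82). Their median was 11.29, 11.93 and 11.44 on the U0126-Sham arrays and 10.56, 9.35 and 9.28 on the DMSO-Sham arrays. They were also lower at CT15 than at CT4 (88 called) and higher at CT22 than at CT15 (78 called) in DMSO-Sham, and all 3 comparisons share the DMSO-Sham arrays of CT15. The median of all probe sets was 4.61, 4.62 and 4.66 on the U0126-Sham arrays and 4.56, 4.55 and 4.55 on the DMSO-Sham arrays, and that of the unnamed ones 4.17, 4.17 and 4.22 against 4.09, 4.08 and 4.09. The positive control probe sets went the other way, with medians of 8.20, 8.18 and 8.03 on the U0126-Sham arrays and 8.21 on each DMSO-Sham array. With arrays centred on the probe sets with a symbol, 1320 of the unnamed ones were higher, and with cyclic loess 1217. The negative control probe sets had medians of 4.34, 4.49 and 4.47 on the U0126-Sham arrays and 4.42, 4.37 and 4.28 on the DMSO-Sham arrays. Markers of meningeal fibroblasts were lower with U0126 at CT15 in 3 of 10 genes, with a mean level between 5.77 and 6.28 on the U0126-Sham arrays and between 6.54 and 6.73 on the DMSO-Sham arrays.

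The 3 largest increases with U0126 at CT15 included a probe set numbered among 5S genes. TC0800003141, numbered between the 5S genes n-R5s136 and n-R5s138, had 10.69, 11.25 and 10.74 on the U0126-Sham arrays and 9.87, 8.62 and 8.63 on the DMSO-Sham arrays (log2 fold change 1.85, SE 0.30, adjusted p = 0.000844 by limma). TC1600000603 had 9.96, 10.56 and 10.05 on the U0126-Sham arrays and 9.24, 8.13 and 7.87 on the DMSO-Sham arrays (1.78, adjusted p = 0.00166). TC1300001160 had 9.52, 10.07 and 9.59 on the U0126-Sham arrays and 8.71, 7.77 and 7.67 on the DMSO-Sham arrays (1.68, adjusted p = 0.000844). In all 3, DMSO-Sham replicate 1 was the highest of its group and no U0126-Sham array overlapped it, as the rule for naming them required. The largest decrease was at TC0900001109, which had 7.10, 5.90 and 7.43 on the U0126-Sham arrays and 7.84, 8.16 and 8.09 on the DMSO-Sham arrays (-1.22, SE 0.36, adjusted p = 0.0686). That call was lost without U0126-Sham replicate 2 or without DMSO-Sham replicate 2 or 3, and its fold change ranged between -1.53 and -0.77 over the settings tried.

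With light at CT15, 24 unnamed probe sets were higher in DMSO-Light than in DMSO-Sham and 4 were lower, against 0.105% called among all probe sets (0.091% higher and 0.0136% lower). The total was 7 without DMSO-Light replicate 3, 77 without DMSO-Light replicate 1, and 16, 16 and 11 without DMSO-Sham replicates 1, 2 and 3. The largest increases included probe sets numbered near Rora and Dusp4, which were themselves higher with light. TC0900000914 is numbered 22 steps after Rora, a nuclear receptor that drives transcription of the clock gene Bmal1. Rora is the nearest coding gene numbered before it, but 9530091C08Rik, 19 steps before it, and Anxa2, 4 steps after it, were nearer in number. TC0900000914 had 7.60, 7.93 and 8.64 on the DMSO-Light arrays and 6.36, 6.30 and 6.64 on the DMSO-Sham arrays, without overlap (log2 fold change 1.63, SE 0.23, 95% interval 1.15 to 2.10, adjusted p = 0.00149 by limma). The next number, TC0900000915, had 6.61, 6.29 and 7.07 on the DMSO-Light arrays and 5.47, 5.36 and 5.42 on the DMSO-Sham arrays (1.24, adjusted p = 0.00550). TC0900000916 had 5.44, 5.72 and 5.61 on the DMSO-Light arrays and 4.79, 4.79 and 4.55 on the DMSO-Sham arrays (0.87). These 3 were the only run of 3 or more called with light at CT15, and the numbered Rora probe set rose by 0.59 (SE 0.09, adjusted p = 0.00191) in the same comparison. Marker lists moved on these arrays too, and their part in the calls was not tested. Of 10 SCN neuron markers 1 was called higher with light (median log2 fold change 0.36), and their mean level was 8.76 to 8.97 on the DMSO-Light arrays and 8.36 to 8.46 on the DMSO-Sham arrays. Of 10 meningeal fibroblast markers 2 were called lower (median -0.54), with a mean level of 5.69 to 6.39 on the DMSO-Light arrays and 6.54 to 6.73 on the DMSO-Sham arrays.

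TC0800000417 follows Dusp4 by 1 number and was called in 6 of 15 comparisons, the most of any unnamed probe set and a count that 1 other shared. With light at CT15 it had 6.77, 6.68 and 7.12 on the DMSO-Light arrays and 5.42, 5.17 and 5.35 on the DMSO-Sham arrays (log2 fold change 1.54, SE 0.21, adjusted p = 0.000735 by limma). The Dusp4 probe set rose by 0.74 (adjusted p = 0.0234) in that comparison. TC0600002392, numbered 1 after A530053G22Rik, had 6.70, 7.25 and 6.90 on the DMSO-Light arrays and 5.47, 6.28 and 5.15 on the DMSO-Sham arrays (1.32, SE 0.19, adjusted p = 0.00149). TC1100000188, numbered 1 after Spred2, an inhibitor of the Ras and ERK pathway, had 5.61, 5.25 and 5.87 on the DMSO-Light arrays and 4.91, 5.06 and 4.72 on the DMSO-Sham arrays (0.68, SE 0.14, adjusted p = 0.0474). The groups did not overlap in any of the 3, which was a condition for naming TC0800000417 and TC0600002392. In this comparison 13.7% of all probe sets had groups without overlap. The Spred2 probe set was called in no comparison. The largest decrease was at TC0900001232, numbered 1 after Nmnat3, an enzyme of NAD synthesis, with 6.85, 6.85 and 6.72 on the DMSO-Light arrays and 7.38, 7.58 and 7.51 on the DMSO-Sham arrays (-0.68, SE 0.10, adjusted p = 0.00351). TC0100001342 had 5.94, 6.28 and 6.04 on the DMSO-Light arrays and 6.64, 6.85 and 6.75 on the DMSO-Sham arrays (-0.66, adjusted p = 0.0486). That call was lost when any of 5 of the 6 arrays was left out, and with the replicate number in the model as a block.

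In mice given U0126, limma called no unnamed probe set with light at CT15, and 0 of all 65956 probe sets. There 1388 (4.19%) had an unadjusted p under 0.05, against 4.51% of all probe sets. Light against sham under U0126 likewise gave 0 calls at CT4 and CT22, among the unnamed probe sets and among all. There 1738 (5.24%) and 2012 (6.07%) had an unadjusted p under 0.05, against 4.27% and 4.83% of all probe sets. The light responses under U0126 and DMSO, tested against each other, were called different for none of the unnamed probe sets at CT4, CT15 or CT22. The same held for all probe sets tested. An unadjusted p under 0.05 was found for 1266, 2103 and 1769 (3.82%, 6.35% and 5.34%), against 3.04%, 6.01% and 5.33% of all probe sets. Without DMSO-Sham replicate 1 the difference of the light responses was called for 93 at CT15, and leaving out any other array gave at most 5.

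Set against light alone, U0126 with light at CT15 had 83 unnamed probe sets higher and 20 lower, against 0.233% of all probe sets (0.139% higher and 0.094% lower). The labels state no pairing of arrays, but the residuals of same-numbered arrays of these 2 groups were correlated (0.33, 0.18 and 0.41). With the replicate number as a block the count was 196. With arrays centred on the probe sets with a symbol it was 31 higher and 17 lower. It was 775 without U0126-Light replicate 1 and 14 without U0126-Light replicate 2, 50 and 55 without DMSO-Light replicates 1 and 3, 27 without DMSO-Light replicate 2, and 44 without U0126-Light replicate 3. Of the 10 SCN neuron markers 2 were called lower (median -0.48), with a mean level of 8.33 to 8.55 on the U0126-Light arrays and 8.76 to 8.97 on the DMSO-Light arrays, and their part in the calls was not tested. Probe sets near Dusp4 and Rora that were higher with light were among the lower ones. TC0800000417 had 5.01, 5.46 and 5.26 on the U0126-Light arrays, against the DMSO-Light values above (log2 fold change -1.61, adjusted p = 0.000256 by limma). TC0900000914 had 6.21, 6.56 and 6.80 on the U0126-Light arrays (-1.53, adjusted p = 0.00176), and TC0900000915 was lower as well (-1.09, adjusted p = 0.0266). Both comparisons use the same DMSO-Light arrays. The largest other decrease was at TC0500002543, numbered 4 after Kctd8, with 3.57, 3.61 and 3.87 on the U0126-Light arrays and 4.56, 4.93 and 5.18 on the DMSO-Light arrays (-1.21).

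The increases under U0126 with light at CT15 were 50 of the 6155 probe sets after a coding gene over 200 kb (0.812%) and 33 of the 26797 after a shorter one (0.12%). These counts rested on single arrays. They were 353 and 388 without U0126-Light replicate 1, 3 and 3 without U0126-Light replicate 2, and 13 and 11 without U0126-Light replicate 3. Without DMSO-Light replicates 1, 2 and 3 they were 22 and 7, 9 and 5, and 28 and 22. TC0X00000391, numbered 3 after the glutamate receptor gene Gria3, had 4.87, 5.26 and 4.81 on the U0126-Light arrays and 4.25, 3.70 and 4.21 on the DMSO-Light arrays (log2 fold change 0.93). TC0500000757, numbered 7 after the adhesion receptor gene Adgrl3, had 6.57, 6.82 and 6.52 on the U0126-Light arrays and 5.85, 5.36 and 5.94 on the DMSO-Light arrays (0.92). Neither pair of groups overlapped, which was a condition for naming these probe sets. In this comparison 14.4% of all probe sets had groups without overlap. The call of TC0X00000391 was lost without replicate 2 of either group, and that of TC0500000757 without any 1 of the 6 arrays other than U0126-Light replicate 1, with cyclic loess, or with arrays centred on the probe sets with a symbol.

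At CT4, light in DMSO mice gave 0 calls by limma, among the unnamed probe sets and among all 65956. There 2342 (7.07%) had an unadjusted p under 0.05, against 7.02% of all probe sets. Without DMSO-Sham replicate 3 there were 23 calls. U0126 with light at CT4 gave 2 higher and 2 lower, against 0.0136% of all probe sets (0.00455% higher and 0.0091% lower). It gave 1 or 2 in all without DMSO-Light replicate 1, 2 or 3 or U0126-Light replicate 3. The clearest was again TC0800000417, which had 5.30, 5.24 and 5.54 on the U0126-Light arrays and 7.10, 7.09 and 6.77 on the DMSO-Light arrays (log2 fold change -1.63, SE 0.21, adjusted p = 0.00108). The arrays of CT4 also differed in Xist, the RNA that coats the inactive X chromosome of females: its level was 3.29 to 3.39 on the DMSO-Light arrays, against 9.44 to 10.21 on the U0126-Light arrays and 9.66 to 10.22 on the DMSO-Sham arrays. Xist therefore cannot be told apart from U0126 or light in these comparisons at CT4. With the Xist level as a covariate, whose slope comes from the other groups, TC0800000417 had -1.90 and was called, as was 1 more of the 4. Its level in DMSO-Sham followed the time of day, with 6.91, 6.85 and 6.95 at CT4, 5.42, 5.17 and 5.35 at CT15, and 5.46, 5.90 and 6.73 at CT22. CT15 was lower than CT4 by limma (-1.59, adjusted p = 9.66e-05), and CT22 was higher than CT15 (0.71, adjusted p = 0.0218) and lower than CT4 (-0.87, adjusted p = 0.0127). Dusp4 itself was called the same way in all 3, for example by 0.49 at CT22 against CT15.

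**Figure D5:**
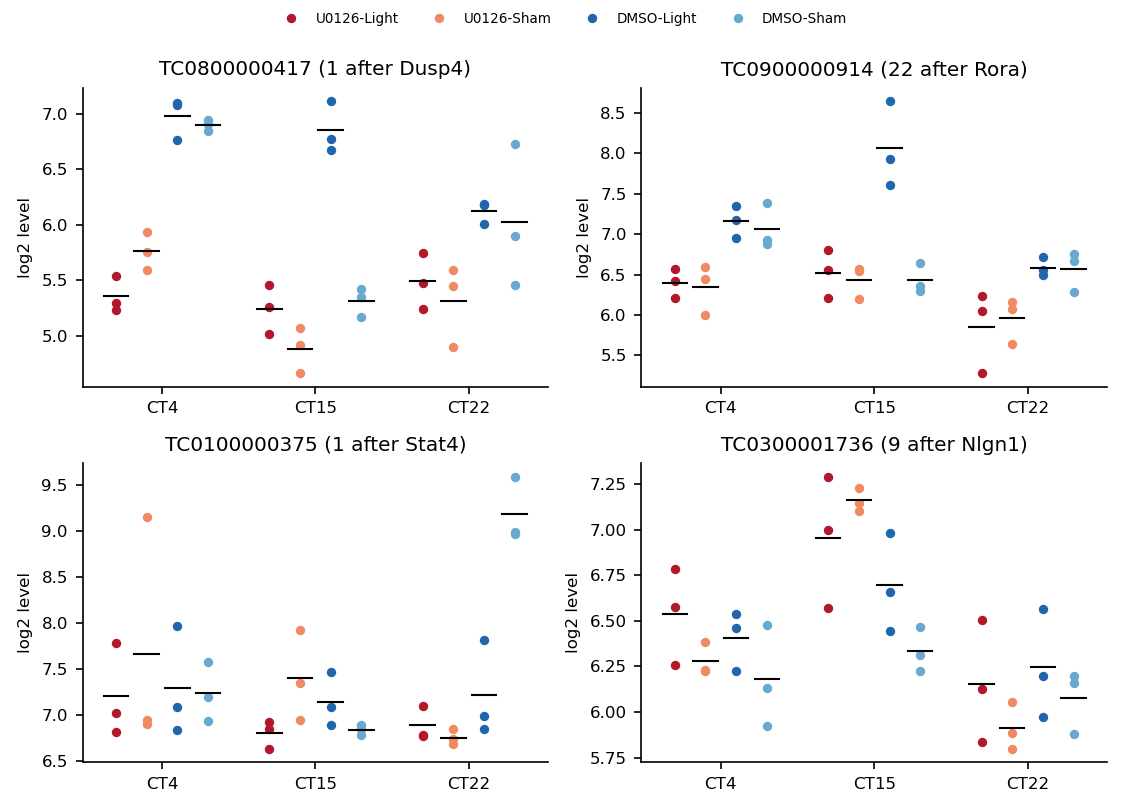
Log2 level (vertical axis) of 4 unnamed probe sets on each of 36 arrays, by time and group, with their numbered neighbours in the titles. Points are arrays and lines are means of 3. TC0800000417 and TC0900000914 are high in DMSO-Light at CT15 (6.68 to 7.12 and 7.60 to 8.64), TC0100000375 is high in DMSO-Sham at CT22 (8.96 to 9.59), and TC0300001736 is high in U0126-Sham at CT15 (7.10 to 7.23).

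With light at CT22, 80 unnamed probe sets were higher in DMSO-Light than in DMSO-Sham and 48 lower, against 0.66% of all probe sets (0.139% higher and 0.52% lower), while among those with a symbol 12 were higher and 295 lower. With arrays centred on the probe sets with a symbol, the unnamed ones had 101 higher and 38 lower. The total was 8 without DMSO-Sham replicate 3, 13 and 15 without DMSO-Light replicates 1 and 2, and 233 without DMSO-Light replicate 3. Of the 80 that were higher, 67.5% followed a coding gene over 200 kb, which were 54 of 6155 (0.877%) against 26 of 26797 after a shorter gene (0.097%). Without DMSO-Light replicate 1 these were 2 (0.0325%) and 3 (0.0112%). For the 41 lower ones with a numbered coding gene before them, the median length of that gene was 18.4 kb. A run of 4 after Lsamp (TC1600000572 to TC1600000575) rose by 0.54 to 0.75, and the Lsamp probe set had 0.13 (adjusted p = 0.383 by limma).

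The largest increase with light at CT22 was at TC1600001910, the other probe set called in 6 comparisons, which had 5.28, 5.00 and 4.91 on the DMSO-Light arrays and 4.05, 4.29 and 4.25 on the DMSO-Sham arrays (log2 fold change 0.87, SE 0.13, adjusted p = 0.00252 by limma). With U0126 and no light it had 4.76, 4.87 and 4.52 at CT22 (0.52, adjusted p = 0.0341), and its DMSO-Sham arrays of CT22 were below those of CT4 (-0.55) and CT15 (-0.57). TC0100001890, numbered 1 after Xkr4, had 5.68, 5.52 and 4.92 on the DMSO-Light arrays and 4.53, 4.79 and 4.27 on the DMSO-Sham arrays (0.85, SE 0.19, adjusted p = 0.0382). It was also among those higher with U0126 at CT15, with 5.80, 5.90 and 5.92 on the U0126-Sham arrays and 4.85, 4.87 and 4.82 on the DMSO-Sham arrays (1.03, adjusted p = 0.00291). TC0500000563, numbered 3 after the protocadherin gene Pcdh7, had 5.55, 5.69 and 5.35 on the DMSO-Light arrays and 4.84, 4.83 and 4.58 on the DMSO-Sham arrays (0.78, adjusted p = 0.0609). None of these pairs of groups overlapped, which for light at CT22 was a condition for naming the probe sets. The light response differed between CT22 and CT15 for 15 unnamed probe sets (6 higher and 9 lower at CT22), against 0.0804% of all probe sets (0.0121% higher and 0.0682% lower), and for 2 or fewer of them without DMSO-Light replicate 2 or 3 or DMSO-Sham replicate 1 or 3 of CT15, or without DMSO-Light replicate 1 or 2 or DMSO-Sham replicate 3 of CT22. It was 7 without DMSO-Sham replicate 2 of CT15. The calls of TC0100001890 and TC0500000563 with light were lost without DMSO-Sham replicate 3 or without DMSO-Light replicate 1 or 2. That of TC0500000563 was also lost without DMSO-Sham replicate 2 and with the replicate number as a block.

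The 3 largest decreases with light at CT22 were of probe sets that were high in DMSO-Sham at CT22, and 2 of them are numbered beside genes of the immune response. TC0100000375, numbered 1 after Stat4, a transcription factor of cytokine signalling, had 6.99, 6.85 and 7.81 on the DMSO-Light arrays (log2 fold change -1.96, SE 0.39, adjusted p = 0.0199 by limma) and 6.84, 6.73 and 6.68 on the U0126-Sham arrays (-2.43, adjusted p = 0.000984), against 8.96, 8.99 and 9.59 on the DMSO-Sham arrays of CT22, which neither group reached. Of the other arrays of all times, only U0126-Sham replicate 3 of CT4, at 9.16, was in the range of these DMSO-Sham arrays. Its call with light was lost without DMSO-Sham replicate 3 or DMSO-Light replicate 1 or 2. TC0300003133, numbered 1 before the interferon-induced gene Ifi44l, had 4.58, 4.35 and 5.85 on the DMSO-Light arrays (-2.41, SE 0.61, adjusted p = 0.0791) and 4.25, 4.13 and 4.03 on the U0126-Sham arrays (-3.20, adjusted p = 0.00418), against 7.42, 7.57 and 7.02 on the DMSO-Sham arrays. Its call with light was lost when any 1 of the 6 arrays other than DMSO-Light replicate 3 was left out, and with the replicate number as a block. TC0X00003437 had 4.63, 4.49 and 5.30 on the DMSO-Light arrays (-1.61, adjusted p = 0.0192) and 4.33, 4.31 and 4.57 on the U0126-Sham arrays (-2.01, adjusted p = 0.000859), against 6.42, 5.91 and 6.91 on the DMSO-Sham arrays. Its call with light was lost without DMSO-Sham replicate 3 or without DMSO-Light replicate 1 or 2. Ifi44l itself lay between 2.38 and 2.75 and was not called.

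TC1700002352, numbered 1 after the cytokine gene Tnfsf14, had the largest difference with U0126 at CT22, with 5.67, 5.73 and 5.54 on the U0126-Sham arrays and 9.53, 9.68 and 9.70 on the DMSO-Sham arrays (log2 fold change -3.99, SE 0.82, adjusted p = 0.00827 by limma). TC1500001728, numbered between Ly6i and Ly6c1, genes of surface proteins of blood and endothelial cells, had 8.12, 8.01 and 8.05 on the U0126-Sham arrays and 8.94, 8.93 and 9.42 on the DMSO-Sham arrays (-1.03, adjusted p = 0.000269). Named interferon genes moved with these probe sets, and their part was not tested: the mean of 9 of 10 listed genes lay between 5.19 and 6.26 on the DMSO-Light arrays, between 4.86 and 5.01 on the U0126-Sham arrays, and between 7.37 and 8.08 on the DMSO-Sham arrays of CT22. Of the 9, 7 were lower with light, 9 were lower with U0126, and 9 were higher at CT22 than at CT15 in DMSO-Sham. Among 8 microglia markers, 2 were lower with light and 4 with U0126, with a mean between 6.69 and 7.09 on the DMSO-Light arrays, between 6.74 and 6.81 on the U0126-Sham arrays, and between 7.13 and 7.55 on the DMSO-Sham arrays. A single set of DMSO-Sham arrays is the base of all of these, so light, U0126 and that set of pools cannot be told apart as the source of the difference.

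Increases with U0126 at CT22 were small by comparison. TC1300001078 had 4.74, 4.80 and 4.50 on the U0126-Sham arrays and 4.01, 3.88 and 3.97 on the DMSO-Sham arrays (log2 fold change 0.73, SE 0.13, adjusted p = 0.00205 by limma). TC1700000525 is numbered 1 before Umodl1 and 2 after Glp1r, the receptor of the gut hormone GLP-1. This probe set had 6.78, 7.04 and 6.88 on the U0126-Sham arrays and 6.10, 6.17 and 6.41 on the DMSO-Sham arrays (0.67), and was higher with light too (0.61). Its call with U0126 was lost without DMSO-Sham replicate 1 or 2 or U0126-Sham replicate 2. A dim probe set on an unplaced contig, TC1_GL456211_random00000009, had 3.82, 3.52 and 4.77 on the U0126-Sham arrays and 3.08, 1.91 and 2.37 on the DMSO-Sham arrays (1.58), and its call was lost without U0126-Sham replicate 3 or DMSO-Sham replicate 2.

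U0126 with light at CT22 gave 1 unnamed probe set higher and 7 lower, against 0.0136% of all probe sets (0.00152% higher and 0.0121% lower). TC0200001718 is numbered 1 before Mir674 and 2 after Spred1, an inhibitor of the Ras and ERK pathway like Spred2. This probe set had 5.37, 4.93 and 4.76 on the U0126-Light arrays and 6.22, 5.91 and 5.87 on the DMSO-Light arrays (log2 fold change -0.98, SE 0.17, adjusted p = 0.0471 by limma). TC1100000188, after Spred2, had 4.95, 4.80 and 4.55 on the U0126-Light arrays and 5.55, 5.41 and 5.57 on the DMSO-Light arrays (-0.74, adjusted p = 0.0712), and was lower with U0126 without light as well (-0.62, adjusted p = 0.0152). TC1500000012, numbered 2 after Plcxd3, had 4.52, 4.27 and 4.04 on the U0126-Light arrays and 5.71, 5.24 and 5.03 on the DMSO-Light arrays (-1.05, SE 0.17, adjusted p = 0.0280). The 1 increase was TC1700001721, with 7.94, 8.07 and 8.22 on the U0126-Light arrays and 7.17, 6.79 and 7.30 on the DMSO-Light arrays (0.99, adjusted p = 0.0471). No pair of groups overlapped, which was a condition for naming all of these but TC1100000188. Without DMSO-Light replicate 1 or U0126-Light replicate 2 limma called none of the unnamed probe sets in this comparison (2216 and 2508 at an unadjusted p under 0.05). With 3 called without U0126-Light replicate 3 and 13 without DMSO-Light replicate 3, these 8 calls rest on few arrays.

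The time of day was compared in DMSO-Sham mice. At CT15 against CT4, 308 unnamed probe sets were higher and 345 lower, against 2.21% of all probe sets (1.02% higher and 1.2% lower). At CT22 against CT4, 358 were higher and 629 lower, against 3.15% (1.95% higher and 1.2% lower), and among those with a symbol 929 were higher and 164 lower. At CT22 against CT15, 531 were higher and 1118 lower, against 5.96% (3.25% higher and 2.71% lower), and among those with a symbol 1610 were higher and 672 lower. The unnamed probe sets thus had more lower than higher calls at CT22 in both comparisons and those with a symbol the reverse, but with the replicate number as a block the unnamed ones had 206 higher and 183 lower against CT4, and 402 higher and 385 lower against CT15. With arrays centred on the probe sets with a symbol, 227 were higher and 1027 lower against CT4, and 300 higher and 1771 lower against CT15. Without DMSO-Sham replicate 3 of CT22, 389 were called at CT22 against CT4. At CT15 against CT4 the count was 265 without CT4 replicate 1, 357 without CT15 replicate 2 and 1022 without CT4 replicate 3. Marker lists differed between times as well, and their part was not tested. At CT22 against CT15, 6 of 8 microglia markers were higher (median 0.72, mean level 7.13 to 7.55 at CT22 and 6.54 to 6.56 at CT15), and 5 of 10 meningeal fibroblast markers were lower (median -0.63, mean level 5.86 to 6.15 at CT22 and 6.54 to 6.73 at CT15).

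At CT22 against CT4, 222 of the 6155 probe sets after a coding gene over 200 kb were lower (3.61%), against 407 of the 26797 after a shorter one (1.52%). Here the probe sets of the long genes themselves were lower as well (37 of 861 called lower and 1 higher, median -0.09). At CT22 against CT15, 24.1% of the unnamed probe sets called lower followed such a gene, beside 18.7% of all of them. TC0200002897, numbered 3 after Celf2, a regulator of splicing, had 5.31, 5.37 and 5.47 at CT4, 4.82, 4.81 and 4.51 at CT15, and 4.30, 4.77 and 4.20 at CT22 (log2 fold change of CT22 against CT4 -0.96, SE 0.16, adjusted p = 0.000549 by limma). TC0300000523, numbered 2 after the potassium channel subunit gene Kcnab1, was called in 5 comparisons. In DMSO-Sham it had 4.97, 4.86 and 4.82 at CT4, 4.46, 4.50 and 4.36 at CT15, and 4.38, 4.18 and 3.71 at CT22, and U0126 without light at CT15 had 5.09, 4.98 and 5.11 (0.62, adjusted p = 0.0172). TC0700001713 was highest at CT15, with 6.88, 6.87 and 6.27, against 5.35, 5.66 and 4.98 at CT4 (1.34, SE 0.23, adjusted p = 0.00126). TC4_GL456350_random00000013, on an unplaced contig, had 7.64, 7.27 and 7.43 at CT15 and 4.71, 4.80 and 7.20 at CT4 (1.87), and its CT4 replicate 3 lay near the CT15 arrays. That call was lost without any 1 of the 6 arrays other than CT4 replicate 3. TC0900001109 had 7.84, 8.16 and 8.09 at CT15 and 6.24, 6.30 and 7.14 at CT4 (1.47, adjusted p = 0.0192), lost without CT4 replicate 1.

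Of the 21 TSUnmapped probe sets without a symbol, 1 was called, TSUnmapped00000134. It had 10.26, 10.24 and 10.20 at CT4, 10.56, 10.73 and 10.82 at CT15, and 10.14, 10.11 and 10.22 at CT22 in DMSO-Sham. CT15 was higher than CT4 (log2 fold change 0.47, SE 0.07, adjusted p = 0.000475 by limma), and CT22 was lower than CT15 (-0.54, adjusted p = 1.24e-05), without overlap of the groups. The brightest, TSUnmapped00000096, had a mean of 13.48 and varied little, with a within-group SD of 0.05, and it was called in no comparison, nor were the brightest 5 TC probe sets, with means between 13.53 and 13.72. Of the 525 unnamed probe sets with a mean above 10, 62 were called in any comparison, most of them between times. Of all 33142 unnamed probe sets, 29045 were called in none. At CT22 against CT15, 24 of the 525 were higher and 17 lower, where 3.25% of all probe sets were higher and 2.71% lower. With U0126 without light at CT15, 5 of the 525 were higher, where 3.41% of all probe sets were. With light in DMSO mice limma called none of the 525 at CT4, CT15 or CT22, where 0, 0.105% and 0.66% of all probe sets were called. Of the 525, 17, 13 and 14 had an unadjusted p under 0.05 at these times.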

How the data were processed

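SCN RNA was hybridised to 36 whole-transcriptome arrays (12 groups, 3 arrays of 2 pooled mice each). The authors deposited log2 intensities per probe set, processed in R with oligo, and these were used as deposited. The exact call is not given in the sources used here. The labels give circadian times, a 3 µL infusion and collection 60 min after the pulse, while the study's methods give zeitgeber times and other values for the last 2. Of 72688 probe sets, 6732 controls were left out. The platform annotation gave the symbols, and RefSeq the gene lengths and positions (GRCm38.p6). The build of the array's design is not given in the sources used here. Immunohistochemistry was not analysed here.

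A linear model with 12 group means was fitted to all 65956 non-control probe sets (limma 3.58.1 in R 4.3.3) without a filter on level, for 15 comparisons between groups and 5 differences of differences. A probe set was called at an adjusted p of at most 0.1 (Benjamini-Hochberg within a comparison) and a fold change above 1.3. The p-values measure the spread between pools of mice, of which 3 per group limit the precision. The fit was tested on simulated data. The probe sets and marker lists were chosen with earlier results of these data known. Named probe sets are, for each comparison, up to 3 largest increases and decreases among called ones whose groups do not overlap, the 5 brightest of each prefix, and the 5 called most often. The descriptions by adjacent number, gene length, 5S probe sets and chromosome Y were added after values were seen, and the examples of long genes, the Nlgn1 stretch and TC0900000915 and TC0900000916 were picked then.

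Whether replicate numbers pair the arrays was checked from the residuals of same-numbered arrays in 2 groups of 1 time. Their 3 correlations all exceeded 0.1 in 2 of the 18 combinations of groups (U0126-Sham with DMSO-Sham at CT4, U0126-Light with DMSO-Light at CT15). The alternatives were cyclic loess, centring each array on the probe sets with a symbol, leaving out dim probe sets, the replicate number as a block, the Xist level as a covariate, leaving out each array, and, added after the data were seen, counting distinct profiles.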

Additional observations from a re-analysis of the deposited data

Results flagged for a closer look

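For 14 of the named probe sets, a difference between times was itself called by limma. Named probe sets were mainly picked for a large called change in 1 comparison. That choice favours such a difference, so the count is not a separate result. Of all probe sets, 0.0804% were called for the light response at CT22 minus CT15 and 2.44% for the U0126 effect. The light response in DMSO mice was lower at CT22 than at CT15 for TC0900000914, numbered after Rora (log2 difference -1.61, SE 0.33, adjusted p = 0.0654), and for TC0800000417, beside Dusp4 (-1.45, SE 0.29, adjusted p = 0.0640). It was higher at CT22 for TC0600003410 (0.87, SE 0.14, adjusted p = 0.0290), which had a log2 fold change with light of 0.41 at CT22 and -0.46 at CT15. TC0600003410 is dim, with a mean level below the median of the negative control probe sets. Its call with light at CT15 was lost under 7 of 10 settings. These included centring on the probe sets with a symbol, the Xist level as a covariate, and leaving out any DMSO-Light array of CT15.

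The effect of U0126 without light, at CT22 minus CT15, was -5.47 (SE 1.17, adjusted p = 0.0126) for TC1700002352, -4.66 (SE 0.87, adjusted p = 0.00751) for TC0300003133, -2.99 (SE 0.55, adjusted p = 0.00751) for TC0100000375, and -2.40 (SE 0.45, adjusted p = 0.00751) for TC0X00003437. These 4 were high in DMSO-Sham at CT22 in the same pools as the named interferon genes, whose part was not tested. The difference was -2.06 (SE 0.43, adjusted p = 0.0106) for TC0800003141, -1.99 (SE 0.44, adjusted p = 0.0152) for TC1600000603 and -1.88 (SE 0.35, adjusted p = 0.00751) for TC1300001160, which had their largest U0126 increases at CT15 together with the 5S probe sets. It was -1.15 (SE 0.24, adjusted p = 0.0113) for TC1500000012, -0.89 (SE 0.21, adjusted p = 0.0233) for TC0300000523, -0.82 (SE 0.19, adjusted p = 0.0255) for TC1500001728, and 0.53 (SE 0.10, adjusted p = 0.00751) for TSUnmapped00000134.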

How the results depend on the processing

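Of 56 named results, 30 were called under every setting tried, 26 were lost under at least 1, and none reversed. The labels state no pairing by replicate number. Residuals of same-numbered arrays were all correlated above 0.1 in only 2 pairs of groups. With the replicate number as a block, U0126 with light at CT15 had 196 calls (103 without it), U0126 with light at CT22 had 17 (8), CT22 against CT4 had 389 (987) and CT22 against CT15 had 787 (1649), and the other counts moved by at most 1.5 times. Cyclic loess gave 68 for U0126 with light at CT15. Centring on the probe sets with a symbol gave 48 for it, 5 for U0126 with light at CT22, and 1 for the difference of the light responses between U0126 and DMSO at CT4 (0). Leaving out dim probe sets gave 23 for U0126 with light at CT22, 2 for U0126 without light at CT4 (0), 1 for U0126 with light at CT4 (4) and 121 for U0126 without light at CT22 (186, or 13 higher and 108 lower), with 86 higher and 31 lower for light in DMSO at CT22, and 342 higher and 233 lower for CT15 against CT4. The Xist level as a covariate gave 1 for light in DMSO at CT4 (0), 2 for U0126 with light at CT4 and 2 for U0126 without light at CT4. Counting distinct profiles moved no count by over 1.5 times. The causes were not tested.

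With 1 array left out at a time, calls with light in DMSO ranged between 0 and 23 at CT4, 7 and 77 at CT15, and 8 and 233 at CT22, and with light in U0126 they were 0 at CT4, 0 to 1 at CT15 and 0 to 2 at CT22. With U0126 without light they ranged between 0 and 6 at CT4, 572 and 1540 at CT15, and 141 and 307 at CT22, and with U0126 and light between 1 and 3, 14 and 775, and 0 and 13. For the difference of the light responses the ranges were 0 to 1, 0 to 93 and 0 to 1 at the 3 times. They were 265 to 1022 for CT15 against CT4, 389 to 1135 for CT22 against CT4, 1120 to 1847 for CT22 against CT15, 0 to 19 for the light response at CT22 minus CT15, and 390 to 1419 for the U0126 effect at CT22 minus CT15. Higher calls with U0126 without light at CT15 were more frequent after long genes under all 11 other settings (6.22% to 35.0%, against 0.694% to 4.97%).

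Signal over background limits these results. Only 8.04% of the unnamed probe sets lay above the brightest background control, and a fold change of a dim probe set on this scale understates a change in RNA. Positions, sequences and gene names of these probe sets were not used here.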

Other observations

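Xist, the RNA that coats the inactive X chromosome of females, lay in 2 separate ranges of level, and 1 of the 300 unnamed probe sets numbered on chromosome Y was higher on every array with low Xist than on any array with high Xist. Xist lay between 3.24 and 3.79 on 15 arrays and between 9.25 and 10.52 on 21. TC0Y00000235 lay between 7.87 and 8.67 on the 15 arrays with low Xist. On the 21 with high Xist, 7 lay between 6.79 and 7.63 and the other 14 at or below 3.59. None of the 31471 unnamed probe sets outside X and Y split the arrays in that way. TC0Y00000232 came next, with a median of 5.14 on the arrays with low Xist and 3.22 on those with high Xist, and its ranges overlapped between 4.68 and 4.78. At CT15 and CT22 every group held arrays of both ranges, while at CT4 all 3 DMSO-Light arrays had low Xist and the other 9 high Xist.

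The mitochondrial probe sets without a symbol, 19 in number, included 5 called higher and 1 called lower at CT22 against CT15 in DMSO-Sham, where 3.25% of all probe sets were higher and 2.71% lower. Of the 101 on unplaced contigs, 12 were higher and 18 lower in that comparison, by values that several of them share because their profiles are identical.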
